A study of Mus musculus with 44 samples.

Results

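Bank1 and 5 genes of the B cell receptor pathway, Blnk, Blk, Cd79a, Cd79b and Pax5, were followed through microglia sorted from mouse brain. They were taken as the rows carrying these 6 names out of the 37583 genes in each of 2 deposited tables, 1 for females and 1 for males. Bank1 was selected on its low level in female 5xFAD against female NonTg libraries, with results of these data already known, and the question was whether it moves with B cell genes or apart from them. Its values in those comparisons are therefore a description and carry no test.

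The study sorted microglia, the resident macrophages of the brain, by FACS for CD11b and CD45 from mice aged 8 months and sequenced their poly(A) RNA. NonTg mice carried no amyloid transgene and had normal Trem2 (Trem2+/+). All other mice were 5xFAD, a transgenic line prone to amyloid plaques, and had 0, 1 or 2 T96K alleles at Trem2, a microglial receptor for lipids. There were 5 NonTg female libraries, and the 5xFAD females comprised 6 with Trem2+/+, 9 with T96K/+ and 7 with T96K/T96K. The 5xFAD males comprised 5, 6 and 6 libraries of the same genotypes, no male NonTg group was analysed here, and every T96K group also carried the amyloid transgenes. The labels number the libraries without saying outright that each number is 1 mouse, so a p-value here speaks for the spread among libraries, which may be technical.

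In B cells, antigen binding to the receptor brings Src-family kinases to the signalling chains Cd79a and Cd79b, and the kinase Syk then docks there. Blnk, an adaptor protein, gathers Btk and phospholipase C gamma next to Syk, and Bank1, a scaffold with ankyrin repeats, links the kinase Lyn to the IP3 receptors that release calcium. Microglia use Syk, Btk and phospholipase C gamma too, downstream of Trem2 and Fc receptors, so that part of this machinery is shared between the lineages.

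In mm9, the genome build the tables use, Bank1 (ENSMUSG00000037922) lies on the minus strand of chr3:135716327-135989030 and Blnk (ENSMUSG00000061132) on the minus strand of chr19:41003417-41069025. Cd79a lies on the plus strand of chr7:25682400-25687216, Cd79b on the minus strand of chr11:106172655-106176076, Blk on the minus strand of chr14:63991674-64036024 and Pax5 on the minus strand of chr4:44544017-44724318. The library chemistry does not mark the strand, and 1 exon-bearing gene on the other strand, Gm12462, overlaps exons of Pax5. The other 5 members overlap no annotated gene.

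The promoters of Bank1 and Blnk are shown because Bank1 was far lower in 5xFAD and Blnk, the most abundant member, was not. RefSeq start-site windows (GRCm38.p6, 250 bases before to 50 after the start, so on another build than the tables) were found for 4 of the 6 members, Bank1, Blnk, Cd79a and Pax5. The Bank1 window is chr3:136326017-136326316 and the Blnk window is chr19:40994172-40994471, both read 5′ to 3′ on the minus strand, with the ETS core GGAAGT in either orientation in capitals.
Bank1: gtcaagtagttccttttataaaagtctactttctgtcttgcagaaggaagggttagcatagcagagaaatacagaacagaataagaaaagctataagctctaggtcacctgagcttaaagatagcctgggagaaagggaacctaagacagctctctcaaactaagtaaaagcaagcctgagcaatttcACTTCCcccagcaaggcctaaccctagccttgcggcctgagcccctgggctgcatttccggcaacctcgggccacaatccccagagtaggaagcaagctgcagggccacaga
Blnk: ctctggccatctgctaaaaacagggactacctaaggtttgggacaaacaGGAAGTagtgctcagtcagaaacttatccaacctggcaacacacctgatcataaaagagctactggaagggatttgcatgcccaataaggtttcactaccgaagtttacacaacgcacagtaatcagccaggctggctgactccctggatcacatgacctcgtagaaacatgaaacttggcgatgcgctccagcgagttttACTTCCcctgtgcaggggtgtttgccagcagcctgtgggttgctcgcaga
ETS factors include PU.1, a lineage factor of both B cells and microglia. Searched on both strands, the ETS core occurred 1 time in the Bank1 window, 2 times in that of Blnk, 1 time in that of Cd79a and 0 times in that of Pax5, and 24.1% of 27025 windows of this length held it. The E-box CACCTG, which is matched by E proteins such as E2A, occurred 1 time each in the windows of Bank1, Blnk and Cd79a, against 20.03% of all windows. A motif of the B cell factor Ebf1, 10 bases long, occurred 0 times in the 4 windows and in 0.914% of all. These are matches of letters and show nothing about binding.

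Libraries held 5891716 to 42374925 reads assigned to genes. They fell into 34 shallow libraries with at most 15987895 reads and 10 deep libraries with at least 26500826 reads. No label names these sets as a batch, and each group held 1 or 2 deep libraries. The sets follow the library numbers, since the deep libraries are those numbered from F25 and from M21 upwards. Library F22, labelled as a female of the T96K/+ group, had 0.416 RPKM of the female-specific RNA Xist, at odds with its label. The microglial genes P2ry12 and Tmem119 were at 145 RPKM or more in every female library. All 21 genes of a list for homeostatic microglia had a mean of 1 RPKM or more in each of the 7 groups, males included. RPKM is the read number divided by gene length and library size.

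Of the signalling chains and the scaffold, 4 members were measurable. Bank1 had 37 to 1507 reads per library, Blnk 1456 to 10262 and Cd79b 59 to 846. Cd79a had only 1 to 94 reads, so its RPKM carry a large counting error. These 4 passed the filter (1 RPKM or more in 5 or more libraries of the table), and Blk and Pax5 did not.

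Pax5, the transcription factor that fixes B cell identity, was listed at 0 in 35 of 44 libraries and reached 7 reads at most, in F25. Blk, a Src-family kinase of B lymphocytes, was listed at 0 in 37 of 44 libraries and reached 6 reads at most, in F24. A count of 0 allows up to 3 reads, which came to 0.0244 to 0.154 RPKM for Pax5 and 0.0346 to 0.218 RPKM for Blk. These limits cover counting error only. Neither gene could be compared between genotypes at this depth.

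Bank1 was highest in the NonTg females, with 9.68 RPKM in F4, 30.2 in F10, 15.5 in F24, 10.7 in F28 and 10.6 in F30. The 6 Trem2+/+ 5xFAD females ranged from 0.312 over a median of 2.06 to 3.08 RPKM. The 9 T96K/+ females ranged from 0.335 over a median of 2.92 to 6.76 RPKM. All of them lay below every NonTg library.
The 7 T96K/T96K females ranged from 0.559 over a median of 2.42 to 5.73 RPKM, again below every NonTg library. Each 5xFAD female group thus contained 1 library far below the rest: F25 at 0.312, F26 at 0.335 and F27 at 0.559 RPKM. All 3 are deep libraries, whereas the deep 5xFAD libraries F33 and F34 held 3.82 and 3.73 RPKM. Among males, the 5 Trem2+/+ libraries ranged from 1.78 over 3.21 to 4.46 RPKM.
The 6 male T96K/+ libraries ranged from 2.38 over 3.18 to 3.92 RPKM and the 6 male T96K/T96K libraries from 2.44 over 3.40 to 5.11 RPKM. The 3 male groups overlapped throughout, and so did the 3 female 5xFAD groups. By median the female groups stood in the order NonTg, T96K/+, T96K/T96K and Trem2+/+, and the last 3 did not differ beyond their spread.

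**Figure D1:**
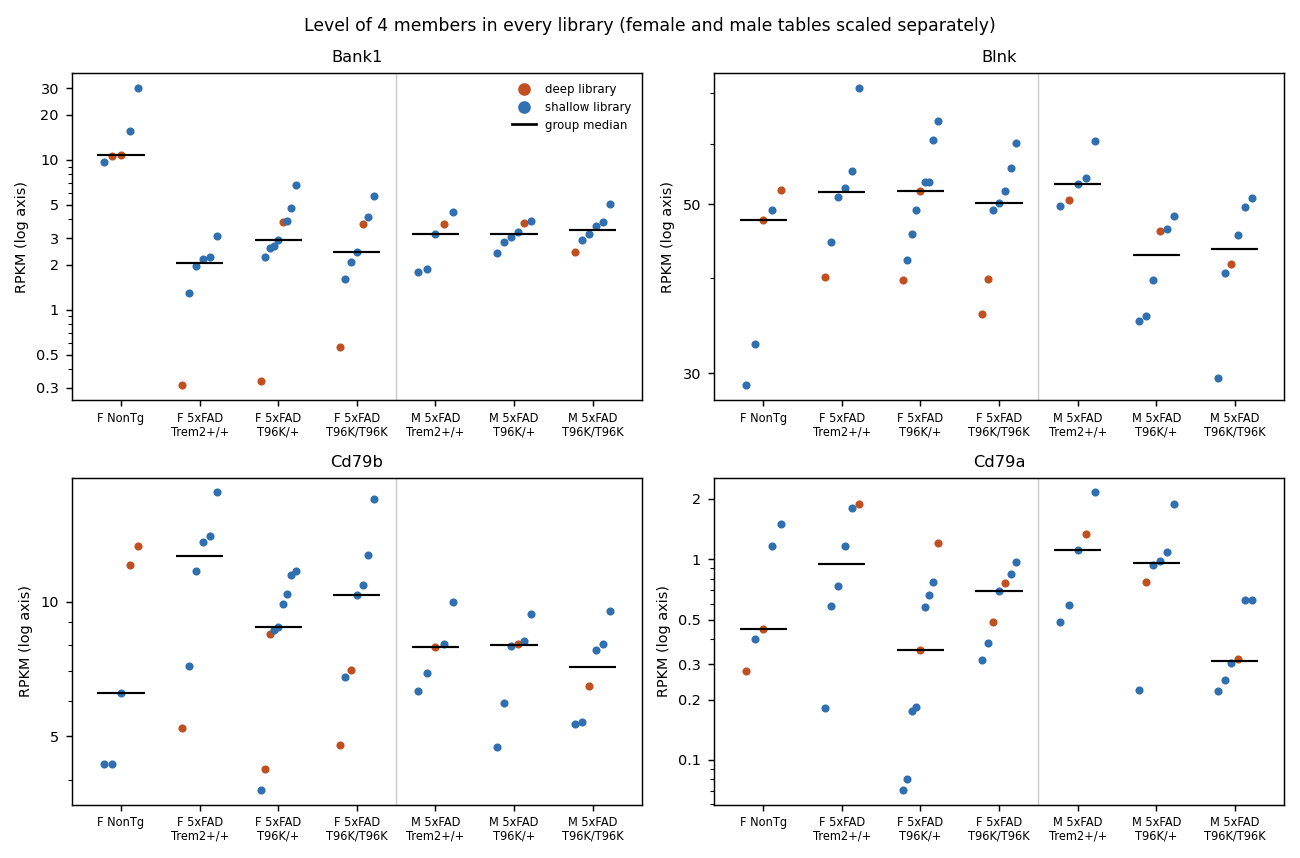
RPKM of Bank1, Blnk, Cd79b and Cd79a on log axes in each library (points, deep or shallow by colour) of the 7 groups, with the group median as a line. The NonTg libraries hold 9.68 to 30.2 RPKM of Bank1 and every female 5xFAD library 6.76 or less, while Blnk, Cd79b and Cd79a overlap between NonTg and 5xFAD.

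On the log2(RPKM + 1) scale, which understates changes of low values, Bank1 stood at -2.48 (SE 0.38; 5.56-fold lower) in Trem2+/+ 5xFAD relative to NonTg females. It stood at -1.92 (SE 0.35; 3.78-fold lower) in T96K/+ and at -2.08 (SE 0.37; 4.22-fold lower) in T96K/T96K. Among 14591 genes tested, the differences ranked 2, 3 and 2 from the lowest. By limma with Benjamini-Hochberg adjustment, 23.6% of all genes tested were called (adjusted p under 0.05) in Trem2+/+ 5xFAD against NonTg, 17.3% in T96K/+ and 15.3% in T96K/T96K. The 3 comparisons share the NonTg libraries, and Bank1 was selected on them. Within the shallow libraries the differences were -2.51, -1.97 and -2.16, and without F25, F26 and F27, a choice made after seeing the data, they were -2.27, -1.72 and -1.88.

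Blnk, the adaptor downstream of Syk, was the most abundant member per length and was not lower in 5xFAD. NonTg libraries held 32.8 RPKM in F4, 49.1 in F10, 28.9 in F24, 52.2 in F28 and 47.6 in F30. Female 5xFAD libraries ranged from 40.2 over a median of 51.9 to 71.1 RPKM in Trem2+/+, from 39.8 over 52.1 to 64.4 in T96K/+ and from 35.9 over 50.1 to 60.2 in T96K/T96K. NonTg and 5xFAD overlapped in each case, with fitted differences of 0.33 (SE 0.17), 0.30 (SE 0.15) and 0.23 (SE 0.16).

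Cd79b, a signalling chain of the receptor, held 4.33 RPKM in F4, 6.24 in F10, 4.35 in F24, 13.3 in F28 and 12.1 in F30 of the NonTg group. Female 5xFAD libraries ranged from 5.21 over a median of 12.6 to 17.5 RPKM in Trem2+/+, from 3.80 over 8.79 to 11.7 in T96K/+ and from 4.79 over 10.3 to 16.98 in T96K/T96K. The fitted differences from NonTg were 0.51 (SE 0.33), 0.14 (SE 0.31) and 0.31 (SE 0.32), with overlapping groups.
The order of NonTg and 5xFAD differed between the depth sets for Cd79b. In the shallow libraries NonTg held 4.33 to 6.24 RPKM and 5xFAD a median of 10.9, with differences of 1.18, 0.73 and 1.03 on the log2 scale. In the deep libraries NonTg held 12.1 and 13.3 RPKM and 5xFAD 4.22 to 8.46. Blnk followed the same order, with a 5xFAD median of 52.6 RPKM against 28.9 to 49.1 in shallow NonTg libraries, and of 39.9 against 47.6 and 52.2 in deep ones. Bank1 was lower in 5xFAD in both sets, at 9.68 to 30.2 RPKM in shallow NonTg against 1.30 to 6.76 in shallow 5xFAD, and at 10.6 and 10.7 against 0.312 to 3.82 in deep libraries. The role of depth or of what else separates the sets was not tested.

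Cd79a, the other signalling chain, held 1.17 RPKM in F4, 0.399 in F10, 1.497 in F24, 0.278 in F28 and 0.450 in F30 of the NonTg group. Female 5xFAD libraries ranged from 0.182 over a median of 0.949 to 1.89 RPKM in Trem2+/+, from 0.0711 over 0.351 to 1.1997 in T96K/+ and from 0.314 over 0.692 to 0.971 in T96K/T96K. The groups overlapped, and the fitted differences from NonTg were 0.21 (SE 0.23), -0.26 (SE 0.21) and -0.07 (SE 0.22). Cd79a and Cd79b pair in 1 receptor complex in B cells, yet their levels differed. The median over all female libraries was 0.582 RPKM for Cd79a and 9.85 for Cd79b, and over all male libraries it was 0.626 and 7.90.

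The level of Bank1 relative to Blnk or Cd79b reuses the values on which Bank1 was selected, so it is a description and no test. Relative to Blnk, Bank1 was lower in every female 5xFAD library than in every NonTg library. The males have no NonTg group beside them. Per 100 RPKM of Blnk there were 20.54 to 61.4 RPKM of Bank1 in NonTg and 0.775 to 12.6 in the female 5xFAD libraries, and 3.28 to 11.1 in the males. Per 100 RPKM of Cd79b there were 80.7 to 483 RPKM of Bank1 in NonTg, and 5.98 to 84.5 in the female and 22.1 to 72.1 in the male 5xFAD libraries, so that 1 5xFAD library overlapped the lowest NonTg value.

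**Figure D2:**
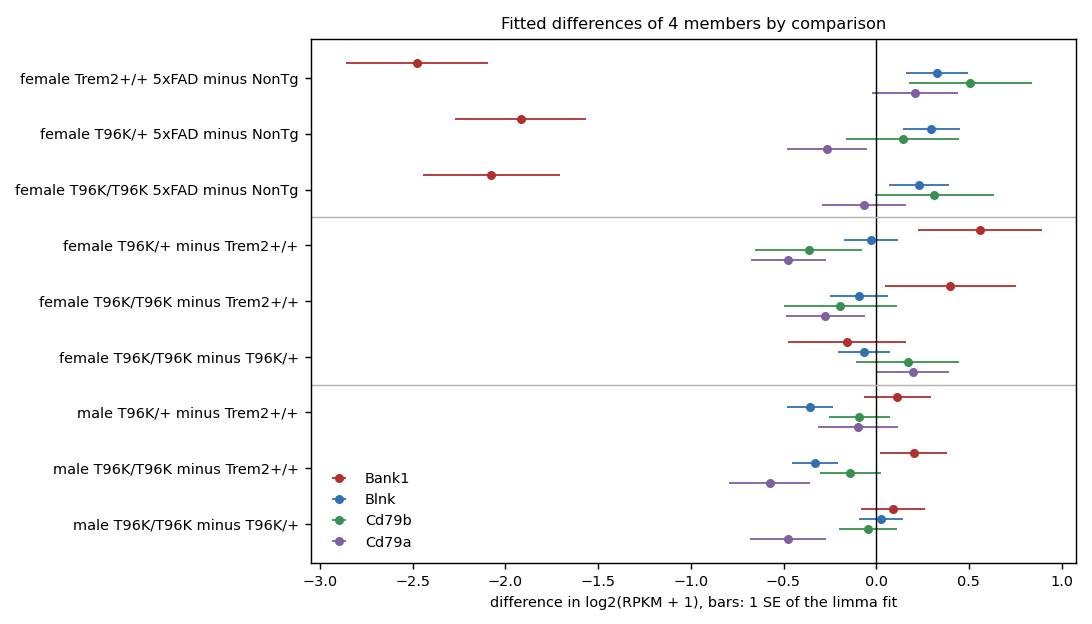
Fitted difference in log2(RPKM + 1) of the 4 measurable members (points; bars, 1 SE of the limma fit) in the 3 comparisons with NonTg and the 6 comparisons between Trem2 genotypes within 5xFAD. Bank1 stands at -2.48, -1.92 and -2.08 against NonTg while the other 3 members lie between -0.26 and 0.51.

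T96K was then compared with normal Trem2 within 5xFAD, in females with libraries that also served the comparisons on which Bank1 was selected. In T96K/+ females Bank1 was 0.56 higher than in Trem2+/+ (SE 0.33, 95% interval -0.13 to 1.25, adjusted p = 0.994 by limma). In T96K/T96K females it was 0.40 higher (SE 0.35, interval -0.32 to 1.13, adjusted p = 0.974 by limma), and T96K/T96K minus T96K/+ gave -0.16 (SE 0.32, adjusted p = 0.982 by limma). Of the 4 members limma called 0 in each of these 3 comparisons, as of all genes (0%). At an unadjusted p under 0.05 there were 523, 544 and 514 of 14591 genes and 1 member, Cd79a in T96K/+ (-0.47, SE 0.20). The 3 differences of Bank1 were smaller than its SD between libraries in the fit (0.63), and the intervals leave room for a change of Bank1 in either direction. The endothelial list had median differences of 0.32 in female T96K/+ and 0.63 in T96K/T96K, in the direction of Bank1, and the monocyte list of -1.33 and 0.23, and their part in these differences was not tested.

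Males served as libraries that the choice of Bank1 did not use. Bank1 was 0.11 higher in T96K/+ (SE 0.18, interval -0.27 to 0.50, adjusted p = 0.796 by limma) and 0.20 higher in T96K/T96K than in Trem2+/+ (SE 0.18, interval -0.18 to 0.58, adjusted p = 0.739 by limma). T96K/T96K minus T96K/+ gave 0.09 (SE 0.17, adjusted p = 0.999 by limma). None of the 3 comparisons passed the threshold for Bank1.

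Blnk was lower in the male T96K groups without passing the adjusted threshold. The male Trem2+/+ libraries held 54.2 RPKM in M1, 49.8 in M2, 60.5 in M7, 53.2 in M13 and 50.7 in M21. The T96K/+ libraries ranged from 35.2 over a median of 42.9 to 48.3 RPKM and the T96K/T96K libraries from 29.6 over 43.7 to 50.9. Every T96K/+ library lay below every Trem2+/+ library, whereas 1 T96K/T96K library, M5, overlapped them. How many of all genes separate in this way was not counted. In T96K/+ the difference of Blnk ranked 832 from the lowest of 13845 genes.
The difference was -0.36 in T96K/+ (SE 0.12, interval -0.62 to -0.09, adjusted p = 0.308 by limma) and -0.33 in T96K/T96K (SE 0.12, interval -0.59 to -0.07, adjusted p = 0.520 by limma). In females the same comparisons of Blnk gave -0.03 (SE 0.15) and -0.09 (SE 0.15). The members called were 0 of 4 in all 3 male comparisons, as of all genes (0%). At an unadjusted p under 0.05 there were 1703, 1193 and 342 of 13845 genes. Among these were Blnk in T96K/+, Blnk and Cd79a in T96K/T96K, and Cd79a in T96K/T96K minus T96K/+. In male T96K/+ the median difference was 0.48 for the endothelial list, -0.70 for the monocyte list and -0.32 for the disease-associated list, and in T96K/T96K it was 0.14, -0.40 and -0.23. Their part in the difference of Blnk was not tested.

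Cd79b differed little between the male genotypes, with medians of 7.90, 8.00 and 7.13 RPKM in Trem2+/+, T96K/+ and T96K/T96K and differences from Trem2+/+ of -0.09 (SE 0.16) and -0.14 (SE 0.16). Cd79a had a median of 1.11 RPKM in male Trem2+/+, 0.958 in T96K/+ and 0.311 in T96K/T96K. Its difference in T96K/T96K was -0.57 (SE 0.22, interval -1.03 to -0.12, adjusted p = 0.520 by limma), on 3 to 14 reads per library in that group. T96K/T96K minus T96K/+ gave -0.48 for Cd79a (SE 0.21, interval -0.91 to -0.04, adjusted p = 0.999 by limma). The groups overlapped, since T96K/T96K reached 0.626 RPKM and Trem2+/+ went down to 0.486.

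The difference of the T96K effect between the sexes was tested directly. For Bank1 the effect was 0.45 higher in females for T96K/+ (SE 0.44, adjusted p = 0.936 by limma) and 0.20 higher for T96K/T96K (SE 0.45, adjusted p = 0.962 by limma). For Blnk it was 0.33 (SE 0.20, adjusted p = 0.928 by limma) and 0.24 (SE 0.21, adjusted p = 0.899 by limma). Of the members and of all 13636 genes tested, limma called 0 (0%) in both, with 643 and 760 genes at an unadjusted p under 0.05.

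Whether Bank1 rises and falls with the other members was then asked across the 5xFAD libraries of each table, leaving NonTg aside so that the step between NonTg and 5xFAD could not make a correlation. With 4 measurable members there were 12 pairs over both tables, and p-values come from permutation tests with 100000 resamples adjusted over these 12.

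In 22 female libraries Bank1 and Blnk gave r = 0.418 (adjusted p = 0.208, permutation test) and rho = 0.255 (adjusted p = 0.743). Without F25 and F26, the libraries farthest from the median of Bank1, r was 0.199, in the shallow libraries it was -0.068, and without F25, F26 and F27 it was -0.125. Bank1 and Cd79b gave r = 0.362 (adjusted p = 0.294, permutation test) and rho = 0.121 (adjusted p = 0.886), with r = 0.060, -0.190 and -0.233 in the same 3 subsets. The positive values thus rested on 3 deep libraries in which Bank1, Blnk and Cd79b were all low. Blnk was at 35.9 to 40.2 RPKM there and Cd79b at 4.22 to 5.21. Other settings that kept these 3 libraries gave higher r, and none passed. Centred on genotype group means, r was 0.475 with Blnk (adjusted p = 0.0718, permutation test) and 0.504 with Cd79b (adjusted p = 0.0648). Without F22 it was 0.444 and 0.4355, with quantile normalization 0.4915 and 0.384, and with a pseudocount of 0.1 it was 0.472 and 0.433. Bank1 and Cd79a gave r = -0.155 (adjusted p = 0.775) and rho = -0.010 (adjusted p = 0.968).

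In 17 male libraries Bank1 gave r = -0.085 with Blnk (adjusted p = 0.956, permutation test; rho = -0.128, adjusted p = 0.886), -0.029 with Cd79b (adjusted p = 0.993; rho = -0.088, adjusted p = 0.886) and 0.001 with Cd79a (adjusted p = 0.997; rho = -0.029, adjusted p = 0.968). Without the 2 libraries farthest from the median of Bank1 the values were 0.179, -0.067 and 0.071. None of the 6 pairs with Bank1 passed the threshold.

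Blnk and Cd79b were positively correlated in both tables. In females r was 0.698 (adjusted p = 0.00354, permutation test) and rho 0.590 (adjusted p = 0.0372), and in males r was 0.749 (adjusted p = 0.00354) and rho 0.650 (adjusted p = 0.0372). Without the 2 libraries farthest from the median of Blnk, r was 0.585 (adjusted p = 0.0382) and 0.683 (adjusted p = 0.0382). Within the shallow libraries r was 0.468 in females (adjusted p = 0.236) and 0.745 in males (adjusted p = 0.0286), and without F25, F26 and F27 the female value was 0.517 (adjusted p = 0.145 over 6 pairs). The female call was thus lost in these subsets. They also hold fewer libraries, 17 and 19, so the loss does not show what the deep libraries contributed. The call on rho was lost more often. Its adjusted p was 0.324 in both tables without the 2 farthest libraries, 0.34 in females and 0.0694 in males with quantile normalization, 0.0721 in females without F22 and 0.1075 in shallow males. Cd79a and Cd79b gave r = 0.058 in females and 0.168 in males, and Blnk and Cd79a 0.180 and 0.326, none of them called. That these pairs differ from those with Bank1 was not tested.

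**Figure D3:**
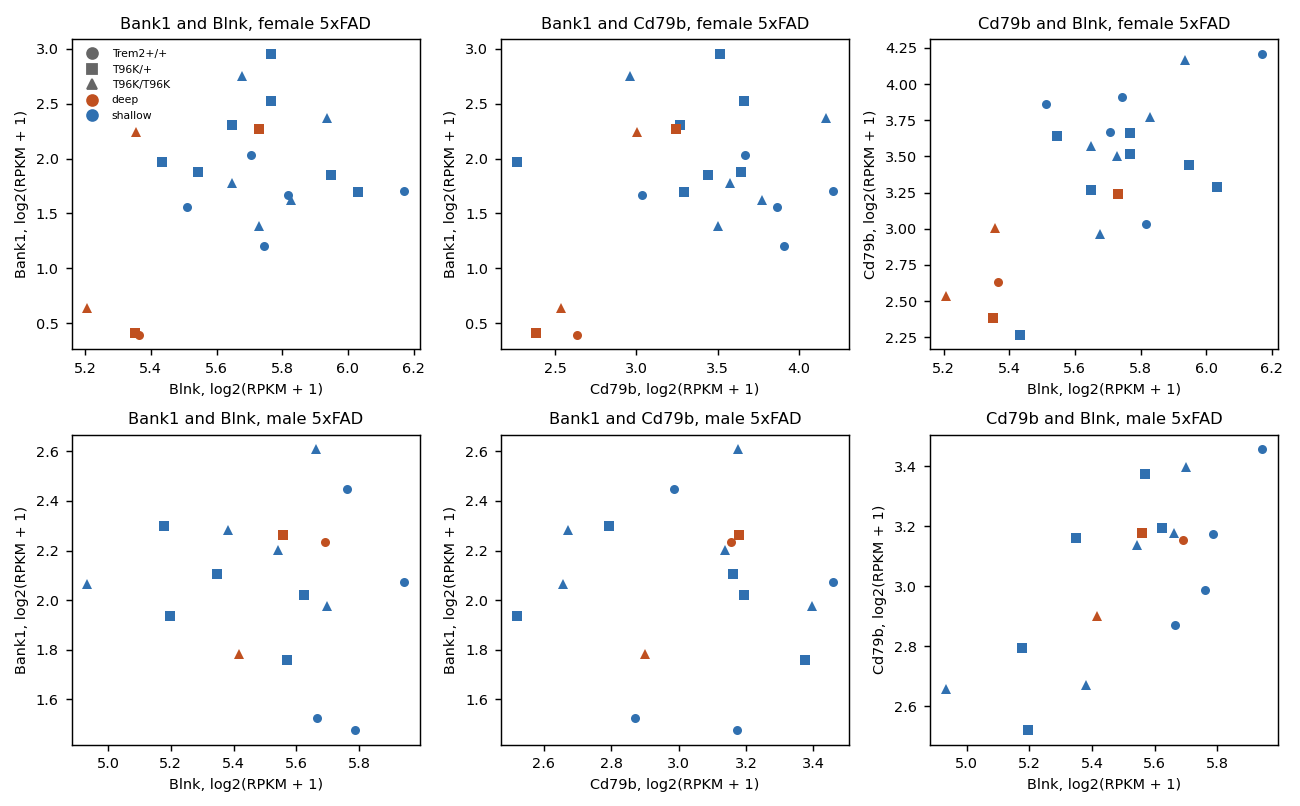
Bank1 against Blnk, Bank1 against Cd79b and Cd79b against Blnk, each as log2(RPKM + 1), in 22 female (top) and 17 male (bottom) 5xFAD libraries, with genotype by symbol and depth by colour. In the female panels 3 deep libraries lie low on both axes, and Cd79b is higher where Blnk is higher in both tables.

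The genes whose pattern came nearest to that of Bank1 were ranked by the lower of the r in the 22 female and the 17 male libraries, over 13635 genes passing the filter in both tables. The first 8 named genes were Sox4 (lower r 0.661), Klf3 (0.643), Kdm4c (0.622), Snx6 (0.611), AI848100 (0.598), Mapkap1 (0.583), Cask (0.573) and Wdr44 (0.569). Sox4 and Klf3 encode transcription factors, Kdm4c a histone demethylase, and Snx6 a sorting nexin of the retromer. Sox4 gave 0.805 in females and 0.661 in males, and 0.585 in the shallow female libraries. In those shallow female libraries r was lower by over 1.5 times for Klf3 (0.707 to 0.370), Kdm4c (0.622 to 0.360), Snx6 (0.611 to 0.275) and Mapkap1 (0.691 to 0.334), so their female values rested in part on the deep libraries. AI848100 went from 0.766 to 0.557, Cask from 0.751 to 0.555 and Wdr44 from 0.569 to 0.708. In the same ranking Cd79b stood at 3634, Blnk at 4700 and Cd79a at 6129. These values are a description over libraries that share depth sets and carry no test.

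B cell lineage genes outside the 6 members were examined as a list of 20 names with 4 members among them. Of its 15 other genes with a row, 8 stayed below 1 RPKM in every library, among them Ms4a1, which encodes CD20 (0.539 RPKM at most), the complement receptor Cr2 (0.245 at most) and the coactivator Pou2af1 (0.766 at most). Ms4a1 was listed at 0 in 26 of 44 libraries. Library F25, with the lowest Bank1, held the highest Ms4a1, at 70 reads.
Another 4 were at 1 RPKM or more in every library. Ighm, the mu heavy chain, ranged from 123 to 525 RPKM, the receptor-like gene Fcrl1 from 7.69 to 26.7, the inhibitory sialic acid receptor Cd22 from 1.84 to 21.6 and the transcription factor Ebf1 from 1.14 to 7.46. Ly6d, a surface antigen of early B lineage cells, ranged from 0 to 19.2 RPKM, with its highest value in F13. The summed level of the whole list, members included, was 150 to 505 RPKM in NonTg and 191 to 587 in the female 5xFAD groups. Most of it was Ighm, at 123 to 457 RPKM in NonTg and 156 to 525 in female 5xFAD.

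**Figure D4:**
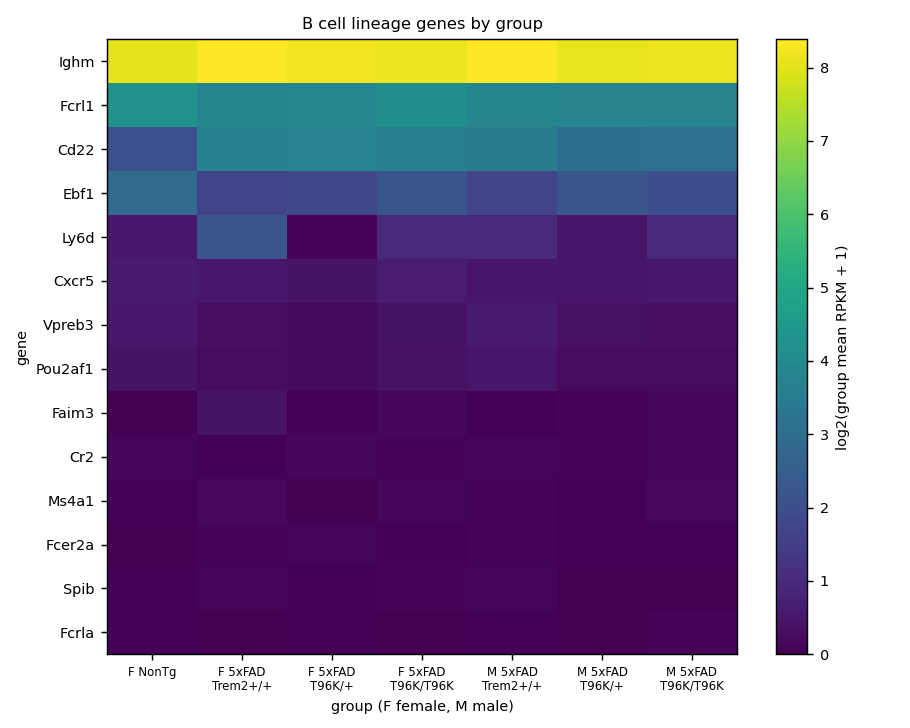
Group mean level, as log2(mean RPKM + 1) by colour, of 14 B cell lineage genes that are not members in the 7 groups. Ighm, Fcrl1, Cd22 and Ebf1 are seen in all groups, and Ms4a1, Spib and Fcrla stay near 0.

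Against NonTg, 5 of the genes outside the members were tested, and 1 was called higher and 1 lower in each 5xFAD genotype, where 23.6%, 17.3% and 15.3% of all genes were called. Cd22 rose by 1.61 (SE 0.23, adjusted p = 1.83e-05), 1.63 (SE 0.22, adjusted p = 5.97e-06) and 1.54 (SE 0.23, adjusted p = 2.80e-05 by limma), from 3.17 ± 1.38 RPKM (SD, n = 5) in NonTg to 11.5 ± 3.08 in Trem2+/+ (SD, n = 6). Ebf1, which mural cells of vessels also express, fell by 1.19 (SE 0.24), 1.07 (SE 0.22) and 0.72 (SE 0.23), from 6.22 ± 1.22 RPKM in NonTg to 2.18 ± 0.59 in Trem2+/+ (adjusted p = 0.000716, 0.00119 and 0.0335 by limma). Ighm (0.45, 0.37 and 0.29), Fcrl1 (-0.38, -0.29 and -0.14) and Ly6d did not pass. The list's median difference was 0.45, -0.29 and 0.28, beside 0.04, 0.03 and 0.03 over all genes.

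Of 28 tested signalling genes that B cells share with myeloid cells, members left aside, limma called 6 higher and 1 lower in Trem2+/+ 5xFAD, where 23.6% of all genes were called. It called 7 higher and 1 lower in T96K/+ (17.3% of all genes) and 6 higher and 1 lower in T96K/T96K (15.3%), and the other genes of the list did not pass. The list's median differences were 0.24, 0.21 and 0.18. Cd72, an inhibitory coreceptor, rose by 2.49, 2.04 and 2.19, and the inhibitory Fc receptor Fcgr2b by 1.58, 1.42 and 1.39. The adaptor Lat2 rose by 1.29, 1.2 and 1.02, the phosphatase Ptprc (CD45, a sort marker) by 0.98, 1.01 and 0.93 and the adaptor Grb2 by 0.47, 0.32 and 0.34. The phosphatase Ptpn6 rose in T96K/+ (0.77, SE 0.26, adjusted p = 0.0365 by limma).
The gene that fell was Grap, an adaptor related to Grb2, by 1.96 (SE 0.39), 1.37 (SE 0.36) and 1.61 (SE 0.37), with adjusted p = 0.000581, 0.00857 and 0.00358 by limma. Its level went from 110 ± 36.3 RPKM in NonTg (SD, n = 5) to 29.2 ± 12.8 in Trem2+/+ 5xFAD (SD, n = 6). Grap thus fell while Grb2 rose in the same libraries.

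Of 8 tested partners of Bank1, limma called 1, 1 and 0 lower and 0 higher, where it called 23.6%, 17.3% and 15.3% of all genes. The IP3 receptor Itpr3 fell by 1.01 in Trem2+/+ (SE 0.23, adjusted p = 0.00248) and by 0.62 in T96K/+ (SE 0.22, adjusted p = 0.0451 by limma), and was at -0.48 in T96K/T96K (SE 0.23, adjusted p = 0.1503 by limma). The kinase Lyn gave 0.20, 0.19 and 0.11, Plcg2 0.04, 0.09 and 0.10, and the Toll-like receptor adaptor Myd88 -0.49, -0.44 and -0.40, none called. Fyn, Itpr1, Itpr2 and Traf6 also did not pass.

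Marker lists of other cells are given beside Bank1. All 8 endothelial markers were called lower in Trem2+/+ 5xFAD than in NonTg, 6 of 8 in T96K/+ and 1 of 8, Pecam1, in T96K/T96K, with summed levels of 689 to 1754 RPKM in NonTg, 255 to 588 in Trem2+/+, 229 to 932 in T96K/+ and 406 to 1287 in T96K/T96K. Their median differences were -1.33, -1.003 and -0.72, and their part in the difference of Bank1 was not tested. In bulk libraries fewer cells of a type and less RNA per cell cannot be told apart. Of the homeostatic microglia list, 2, 1 and 3 of 21 genes were called lower and 0 higher, among them Crybb1 in all 3 comparisons, beside 23.6%, 17.3% and 15.3% of all genes called in either direction. The median differences of that list were 0.23, 0.29 and 0.04, beside 0.04, 0.03 and 0.03 over all genes, so the list as a whole was not lower. All 11 genes of the disease-associated list rose in each. Of 6 monocyte genes tested, 1 (Fn1, -1.18) was called lower in Trem2+/+ and 0 of 6 were called in the T96K genotypes, against the same shares of all genes. Fn1 was the lowest of the list in Trem2+/+, and the list's median differences were 1.195 in Trem2+/+, -0.47 in T96K/+ and 1.06 in T96K/T96K. The 1 testable T or NK cell gene, Trac, was called lower in T96K/+ (-1.04), and was at -0.41 in Trem2+/+ and -0.87 in T96K/T96K, not called.

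Within 5xFAD, limma called 0 genes of these 8 lists in the T96K comparisons of either sex, as it called none of all genes. The following median differences from Trem2+/+ are in the order female T96K/+, female T96K/T96K, male T96K/+ and male T96K/T96K. The shared signalling list gave -0.02, -0.05, -0.28 and -0.20, the B cell lineage list 0.01, -0.08, -0.29 and -0.09, and the Bank1 partners 0.05, 0.07, -0.10 and -0.06. The homeostatic list gave 0.05, -0.12, -0.17 and -0.16, and the disease-associated list -0.24, -0.20, -0.32 and -0.23. The endothelial list gave 0.32, 0.63, 0.48 and 0.14, the monocyte list -1.33, 0.23, -0.70 and -0.40, and Trac alone -0.63, -0.46, 0.60 and 0.48. The median of all genes was -0.0015, -0.0065, -0.016 and -0.0039.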

How the data were processed

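RNA of sorted microglia from 44 libraries was analysed as 1 table for 27 female and 1 for 17 male libraries. The authors deposited RPKM per gene. STAR, HTSeq and edgeR are listed with no version in the submitters' processing notes, and the design text also gives STAR and mm9. Dividing by the value of 1 read turned 100.0% of the deposited RPKM into whole reads within 0.01 reads, which gave the depths and read numbers. The authors' scaling factors ranged from 0.800 to 1.26, and the tables were scaled separately, so tests of levels stayed within a table. The lowest chi-square per degree of freedom between libraries of a group was 6.81, so none was counted as a duplicate.

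Values were taken as log2(RPKM + 1) and fitted with limma 3.58.1 (R 4.3.3, trend and robust options), 1 mean per group, over genes reaching 1 RPKM in 5 or more libraries of the table. P-values were adjusted by Benjamini-Hochberg over all genes, and genes under 0.05 were called. The fit and the correlations were tested on simulated data. Members, lists, tests and alternatives were chosen with earlier results of these data known. The genes named were the members, called genes of each list (at most 8 per comparison by size), B cell lineage genes whose mean reached 1 RPKM in a group and the 8 genes most like Bank1. Ms4a1, Cr2 and Pou2af1, and the partners of Bank1 that were not called, were named after their values were seen. Values of 2 list genes that were counted are not reported here.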

Additional observations from a re-analysis of the deposited data

Results flagged for a closer look

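Among 28 sets of values tested (4 members in 7 groups), 1 library stood far from its group, where chance alone gives about 1 in 20. F26, a deep T96K/+ female, held 0.335 RPKM of Bank1 on 37 reads against 2.23 to 6.76 RPKM in the other 8 libraries. The gap took up 0.502 of the group's range on the log2(RPKM + 1) scale, above the critical value of 0.493. The other low libraries F25 and F27 did not exceed it in their groups.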

How the results depend on the processing

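Under the alternatives (another pseudocount, no or other filters, quantile normalization, depth sets, single libraries left out) 960 of 1016 values of members and correlations held, and 49 turned sign. A tested value held if it kept its direction and its side of the threshold. Differences of members from NonTg carry no test, so they held if they kept direction and moved by less than the SD of the fit. In the shallow libraries 4 of them moved further, and with a pseudocount of 0.1 it was 1. Of 712 tested member values, 0 were called. Leaving out F22, or F25, F26 and F27, was chosen after seeing the data. Bank1 stayed below NonTg in all 58 alternatives, from -3.08 to -2.21 in Trem2+/+, -2.30 to -1.65 in T96K/+ and -2.49 to -1.81 in T96K/T96K. Bank1 was selected on these comparisons, so these values are a description and carry no test. Every other female library lay below the lowest NonTg library, so leaving out libraries could not turn the direction. The cause was not tested for any turn of sign. No paired analysis was possible because the groups share no replicate numbers.

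Quantile normalization gave 0.015 for Blnk in female T96K/+ minus Trem2+/+, -0.010 for Blnk in male T96K/T96K minus T96K/+ and r = -0.164 for Bank1 with Cd79a in males. Shallow libraries alone gave 0.029 for Blnk in female T96K/T96K minus T96K/+, -0.11 for Cd79a in Trem2+/+ 5xFAD minus NonTg, and r = -0.068 for Bank1 with Blnk and -0.190 with Cd79b in females and -0.104 with Cd79a in males. Without F25, F26 and F27 the female r of Bank1 was -0.125 with Blnk and -0.233 with Cd79b. Without F22 the Blnk difference in female T96K/+ minus Trem2+/+ was 0.0046 and the female r of Cd79a with Cd79b -0.062. Centred on genotype means, r was 0.012 for Bank1 with Cd79a and -0.092 for Cd79a with Cd79b in females, and 0.084 for Bank1 with Blnk and 0.030 with Cd79b in males. Without the 2 libraries farthest in Bank1, r was 0.0023 with Cd79a in females and 0.179 with Blnk in males. A pseudocount of 0.1 gave r = -0.033 for Bank1 with Cd79a in males.

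With single libraries left out, Bank1 ranged from -0.354 to 0.040 in female T96K/T96K minus T96K/+, from -0.0066 to 0.237 in male T96K/+ minus Trem2+/+, from -0.0018 to 0.164 in male T96K/T96K minus T96K/+ and from -0.0087 to 0.396 for the sex difference in T96K/T96K. Blnk ranged from -0.098 to 0.063 in female T96K/+ minus Trem2+/+, from -0.117 to 0.0044 in female T96K/T96K minus T96K/+ and from -0.025 to 0.128 in the male equivalent. Cd79b ranged from -0.015 to 0.340 in T96K/+ minus NonTg, from -0.160 to 0.011 in male T96K/+ minus Trem2+/+, from -0.150 to 0.021 in male T96K/T96K minus T96K/+ and from -0.239 to 0.082 for the sex difference in T96K/T96K. Cd79a ranged from -0.168 to 0.074 in T96K/T96K minus NonTg and from -0.217 to 0.055 in male T96K/+ minus Trem2+/+.

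Counts of called genes ranged from 1555 to 2809 in T96K/+ and from 1436 to 2726 in T96K/T96K minus NonTg, lowest without F4 in both. They ranged from 0 to 1 in female T96K/+ minus Trem2+/+ (1 without F13 or F14), female T96K/T96K minus Trem2+/+ (1 without F14) and male T96K/+ minus Trem2+/+ (1 without M22). Depth limits Cd79a, at 1 to 94 reads, and leaves Blk and Pax5 unmeasured.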
